A study of Homo sapiens with 12 samples.

Results

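The miR-23, miR-27 and miR-24 clusters are a pair of genomic loci, named a and b, that each encode hairpins of the miR-23, miR-27 and miR-24 families. The 10 mature miRNA names listed for these loci were taken as members by name alone, and all 10 were found among the 2656 names counted, in every one of 12 libraries. Small RNA had been sequenced from AC16 cells, an established human line made by fusing adult ventricular cardiomyocytes with a transformed fibroblast line, and from exosomes, small vesicles that cells release. Cells and exosomes were each sampled under the labels Con and Ang, which gave 4 groups of 3 libraries. File headers of the Ang libraries read AngII, and neither the dose nor the time is given in the sources used here. The deposited design text describes a search for exosomal miRNAs of hypertrophic cardiomyocytes and for sequence features of those miRNAs.

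A microRNA hairpin is cut into a duplex, of which the 5p strand comes from the 5′ side and the 3p strand from the 3′ side, and one strand usually persists in an Argonaute protein while its partner is degraded. The retained strand recognises messenger RNAs mainly through its seed, the bases near its 5′ end. The hairpins of each cluster are transcribed together as one primary transcript. In heart and vessel, miR-23a-3p is known as a strand that promotes cardiomyocyte hypertrophy and represses the ubiquitin ligase gene TRIM63. The miR-27 3p strands are known repressors of PPARG, a nuclear receptor of lipid metabolism, and miR-24-3p is known to limit vessel growth and to repress junctophilin-2, a protein that couples calcium release to the cell membrane in cardiomyocytes.

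The a cluster spans chr19:13836287-13836659 (GRCh38.p14, minus strand), or 373 bases, and holds MIR23A, MIR27A and MIR24-2 within an exon of AC020916.1, an annotated noncoding gene on the same strand. The b cluster spans chr9:95085208-95086088 (plus strand), or 881 bases. Its hairpins MIR23B and MIR27B lie in introns of the protein-coding gene C9orf3, and MIR24-1 overlaps a UTR exon of one of that gene's transcripts. Mature miR-24-3p is identical from MIR24-1 and MIR24-2, so its counts cannot be assigned to either cluster.

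The mature sequences below, from RefSeq for GRCh38.p14, show which members share a seed and how closely the a and b strands resemble each other. Capitals mark the seed, bases 2 to 8, and the prefix hsa (human) is dropped after this list.
hsa-miR-23a-3p: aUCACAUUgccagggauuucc
hsa-miR-23b-3p: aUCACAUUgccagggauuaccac
hsa-miR-27a-3p: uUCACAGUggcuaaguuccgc
hsa-miR-27b-3p: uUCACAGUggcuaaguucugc
hsa-miR-24-3p: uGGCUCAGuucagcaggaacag
hsa-miR-23a-5p: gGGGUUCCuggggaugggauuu
hsa-miR-23b-5p: uGGGUUCCuggcaugcugauuu
hsa-miR-27a-5p: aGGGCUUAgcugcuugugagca
hsa-miR-27b-5p: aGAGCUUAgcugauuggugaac
hsa-miR-24-2-5p: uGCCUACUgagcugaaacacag
The miR-23 3p strands share their seed, and so do the miR-27 3p strands. Counting from 1 at the 5′ end of the a strand and giving its base first, miR-23a-3p and miR-23b-3p differ by U19A over 21 shared positions, and miR-27a-3p and miR-27b-3p differ by C19U over 21. The 5p partners were less alike: miR-23a-5p and miR-23b-5p share a seed but differ at 7 of 22 positions, and miR-27a-5p and miR-27b-5p differ at 8 of 22, the seed included. How reads with a mismatch were assigned is not given in the sources used here, so the split between the a and b names of the 3p strands is uncertain and their sums were tested as well.

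Levels are given as CPM, the count of unique molecular identifiers (UMIs, tags that mark single molecules before amplification) in each 1000000 UMIs of the library. Cell libraries held 413513 to 528844 UMIs, and exosome libraries 697049 to 1029883. The mature strands are all 21 to 23 bases long, so CPM was compared between members with no length correction. Cell RNA and exosome RNA were extracted with different kits, so compartment and kit cannot be told apart. In these bulk samples, fewer cells of a type and less RNA per cell cannot be told apart either. No source says that the numbered replicates were separate cultures, so the p-values rest on the spread of these libraries alone, which may be technical. Most muscle markers were sparse in the line. miR-1-3p, miR-133a-3p and miR-499a-5p, markers of heart and skeletal muscle, had 18, 24 and 29 counts over the 3 Con cell libraries. miR-208a-3p averaged 221 CPM there and miR-208b-3p 75.0 CPM. Con replicate 1 of the exosomes was unlike the rest of its group, with chi-square values over their degrees of freedom of 6.57 and 10.6 against the other libraries and 1.91 between those. It was the lowest of its group for the 3p strands of miR-23a, miR-23b, miR-27a, miR-27b and for miR-24-3p. In cells, Ang replicate 2 differed from the other Ang libraries by up to 4.37, against 1.99 between those.

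In cells the clusters were an abundant group carried by 3p strands. The 10 members together held 1.02% ± 0.0427 (SD, n = 3) of UMIs in Con cells and 1.05% ± 0.0593 in Ang cells. miR-23a-3p led, with 3269, 2963 and 3016 CPM in Con cells and 3246, 2982 and 3541 CPM in Ang cells, which placed it 63rd and 54th among the 2656 names by mean. miR-24-3p followed with 2773 ± 99.9 CPM in Con cells and 2920 ± 302 CPM in Ang cells. It lay below miR-23a-3p without overlap in Con cells, but the ranges overlapped in Ang cells.

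Next came the miR-27 pair, which could not be ordered. miR-27a-3p was at 1385 ± 166 CPM and miR-27b-3p at 1241 ± 39.1 CPM in Con cells, with overlapping ranges, and they also overlapped in Ang cells at 1393 ± 47.5 and 1279 ± 123 CPM. miR-23b-3p lay lower, at 696 ± 52.3 CPM in Con cells and 740 ± 87.4 CPM in Ang cells. The order below it was the same in Con and Ang cells and its neighbours did not overlap: miR-23b-5p, miR-27b-5p, miR-24-2-5p, miR-27a-5p and miR-23a-5p. In Con cells these 5p strands ran from 583 ± 43.8 CPM for miR-23b-5p to 35.8 ± 7.64 CPM for miR-23a-5p, so the most abundant 3p strand of the set had the least abundant 5p partner.

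**Figure D1:**
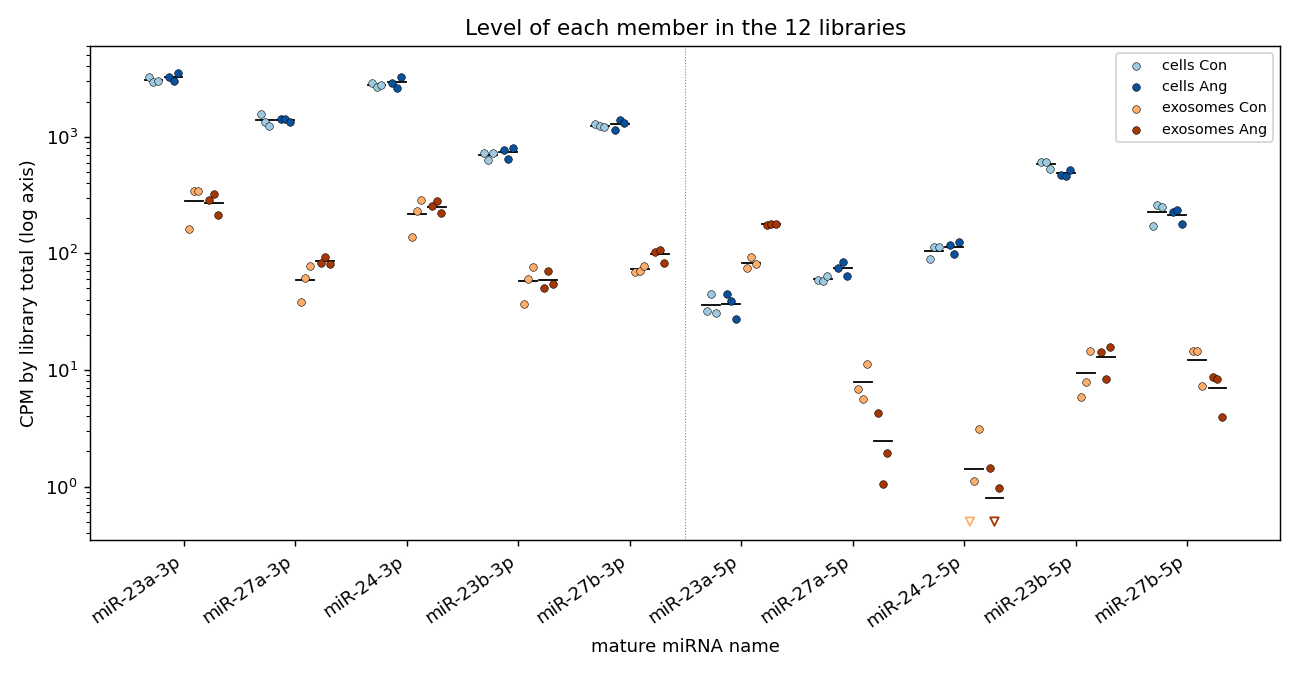
CPM of each of the 10 members (log axis) in the 3 libraries of each group; points are libraries, short lines are group means and open triangles are counts of 0. The 3p strands stand far lower in exosomes than in cells, whereas miR-23a-5p stands higher in exosomes, with the 3 Ang exosome libraries between 176 and 179 CPM.

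In exosomes the members held less of the library and their order differed. Their summed share was 0.0802% ± 0.0227 (SD, n = 3) in Con exosomes and 0.0965% ± 0.011 in Ang exosomes. The ratio of mean shares was 12.7-fold below cells in Con and 10.9-fold below in Ang, without overlap (exact two-sided permutation p = 0.1 each, the smallest that 3 against 3 allows). miR-23a-3p and miR-24-3p were again the highest, with overlapping ranges in both exosome groups. miR-23a-5p, the last in cells, came next by mean: in Con exosomes its range overlapped that of miR-27b-3p below it, and in Ang exosomes it stood clear of every other member. At the low end miR-24-2-5p had 0, 1 and 3 counts in Con exosomes and 1, 0 and 1 in Ang exosomes. A count of 0 in those libraries allows a level of up to 2.91 CPM in Con replicate 1 and 3.13 CPM in Ang replicate 2, for counting error only.

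Exosomes were then compared with cells. With edgeR's quasi-likelihood test and trimmed-mean (TMM) scaling, 83.3% of all 1710 names tested passed an adjusted p (Benjamini-Hochberg) of 0.05 in Con, 39.2% higher and 44.2% lower in exosomes. Against that background, 9 of the 10 members were lower and 1 was higher, with a median log2 difference of -2.37 over the members and -0.27 over all names. In Ang the counts of members were the same, while 83.3% of 1627 names passed, 38.2% higher and 45.1% lower, and the medians were -1.98 and -0.31. miR-24-2-5p, miR-27a-5p and miR-27b-5p had too few exosome counts to be tested within exosomes, so they entered here through their cell counts. With no count filter, 9 members were again lower at an unadjusted p under 0.05 in each treatment. The medians were then -2.31 over the members and -0.49 over all names in Con, and -1.94 and -0.52 in Ang. By CPM, 9 members were lower and 1 was higher with no overlap between exosomes and cells in either treatment. Of all names 89.1% had no overlap in Con (21.0% higher, 68.1% lower) and 91.0% in Ang (18.6% higher, 72.4% lower). The direction and call of each member held under every alternative run. The sizes depend on the scaling: with library totals alone the median of all names moved by -1.51 in Con and by -1.88 in Ang, so each log2 difference below is relative to the TMM reference.

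Among the 3p strands the fall was smallest for miR-23a-3p, miR-23b-3p and miR-24-3p. In exosomes miR-23a-3p had 161, 339 and 344 CPM in Con and 284, 321 and 211 CPM in Ang, each below every cell library. Its log2 difference from cells was -1.95 in Con, or 3.85-fold lower, and -1.70 in Ang. The difference for miR-23b-3p was -2.09 in Con and -1.76 in Ang. miR-24-3p differed by -2.16 in Con, or 4.47-fold lower, and by -1.66 in Ang. The miR-27 strands were further down in Con exosomes, miR-27a-3p by -3.04 (8.25-fold lower) and miR-27b-3p by -2.58, and in Ang by -2.14 and -1.82. Summed over a and b, the miR-23 3p strands differed by -1.98 in Con and -1.71 in Ang, and the miR-27 3p strands by -2.81 and -1.97.

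The 5p strands split. Those of miR-23b, miR-27a, miR-27b and miR-24-2 were lower in exosomes, and miR-23b-5p is the clearest case because it is plentiful in cells. It had 323, 313 and 226 counts in Con cells and 6, 7 and 14 in Con exosomes, a CPM ratio of cells over exosomes of 62.8 (95% counting interval 42.9 to 95.9), and the ratio in Ang was 38.2 (27.1 to 55.7). On the TMM scale it was 21.6-fold lower in Con exosomes. miR-24-2-5p summed to 154 counts in Con cells and 4 in Con exosomes, and to 163 and 2 in Ang, a CPM ratio of 154 with an interval from 42.0 to 1282. The 5p strand of the other miR-24 hairpin, miR-24-1-5p, which shares the seed of miR-24-2-5p, was also lower, by -5.67 in Con and -5.64 in Ang on the log2 scale. Those sizes are uncertain, since it summed to 2 counts in Con exosomes and 2 in Ang exosomes, against 170 and 221 in cells.

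miR-23a-5p went the other way. It had 32.1, 44.6 and 30.7 CPM in Con cells, 44.9, 38.7 and 27.3 CPM in Ang cells, 74.8, 93.4 and 81.3 CPM in Con exosomes and 176, 179 and 177 CPM in Ang exosomes. Every exosome library lay above every cell library, and the exosome groups did not overlap. The counts behind these values ran from 13 to 23 in cells and from 77 to 181 in exosomes. The log2 difference from cells was 2.71 (SE 0.185, adjusted p = 1.65e-07, edgeR) in Con and 4.15 (SE 0.181, adjusted p = 8.41e-13, edgeR) in Ang, and with library totals 1.20 and 2.27. Its seed partner miR-23b-5p, which differs from it at 7 positions, differed by -4.44 and -3.35 on the same scale.

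**Figure D2:**
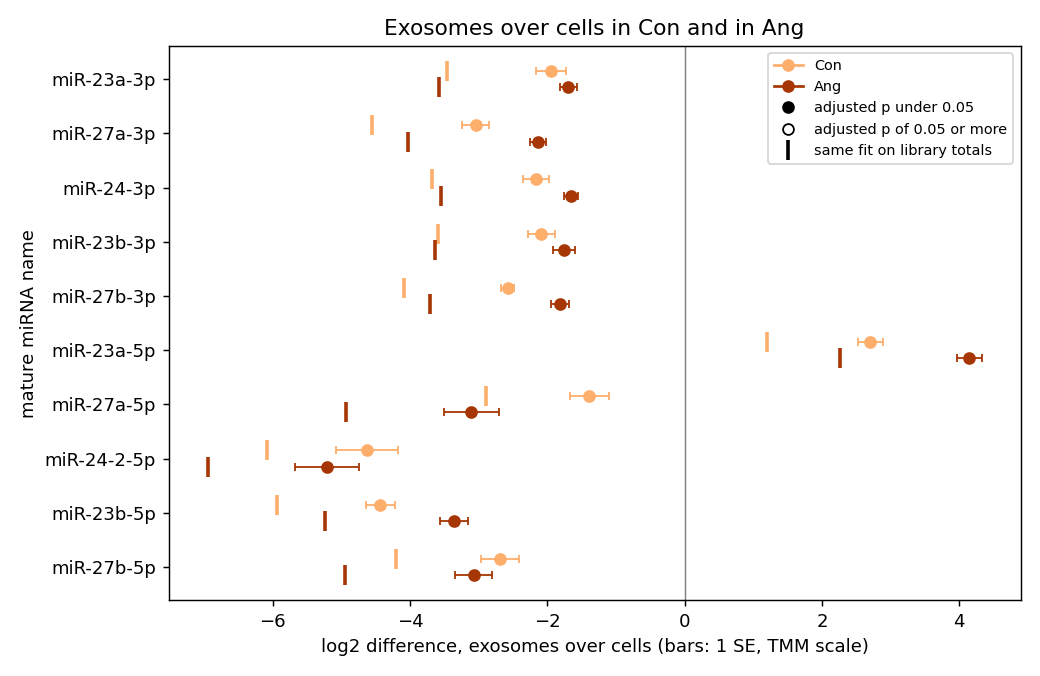
Log2 difference of exosomes from cells for each member in Con and in Ang, with bars of 1 SE from the edgeR fit and vertical ticks for the same fit on library totals. Of the 10 members 9 lie below 0 in both and miR-23a-5p alone lies above, at 2.71 in Con and 4.15 in Ang.

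Base composition was described because it ran with this comparison across all names. miR-23a-5p has the highest GC content of the members, 59.1%, and the others lie between 45.5% and 54.5%. Over the 1536 tested names with a sequence in Con, Spearman's rho of GC content with the exosome minus cell log2 difference was 0.58, and it was 0.58 over 1461 names in Ang, as a description over names that share the same libraries. Names of 55% to 65% GC, a bin chosen after its values were seen, had a median of 0.14 in Con, and 14.4% of these 382 names exceeded the 2.71 of miR-23a-5p. In Ang 6.11% of 360 exceeded 4.15. Names of 40% to 55% GC had medians of -1.18 and -1.04. The part of GC content in the members' differences was not tested.

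Letter groups described in exosomal miRNAs were also looked up on the mature strand. GGAG was in 0 of 10 members (15.7% of 2367 names with a sequence) and CCCU in 0 of 10 (11.9%). GGCU was in 4 of 10, miR-27a-3p, miR-27b-3p, miR-27a-5p and miR-24-3p, and in 12.6% of all such names. All of these 4 strands were lower in exosomes than in cells, and miR-23a-5p, which was higher, holds none of the letter groups.

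Ang was compared with Con in exosomes, since the design text asks about exosomal miRNAs of hypertrophic cells. These libraries hold no measure of hypertrophy itself. In exosomes 34.0% of the 1199 names tested passed, 16.9% higher and 17.1% lower. Of the 10 members 7 had enough counts to be tested, and 3 rose, miR-23a-5p, miR-27a-3p and miR-27b-3p, while 0 of the 7 fell by edgeR, 0 at an unadjusted p under 0.05 and 0 by DESeq2. The median log2 change was 0.59 over those 7 members and -0.05 over all names tested. With the filter removed the other 3 members, all 5p strands, had negative changes, 1 of them at an unadjusted p under 0.05, and the median was 0.23 over all 10 members and -0.13 over 2580 names. With library totals in place of TMM, the median of all names shifted by -0.16.

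The largest of these changes was that of miR-23a-5p, whose values above give a log2 change of 1.26 (SE 0.117, adjusted p = 3.06e-05, edgeR), or 2.39-fold. All 3 Ang libraries exceeded all 3 Con libraries, as for 16.1% of the names tested (52.4% of names had no overlap in either direction). The call held under each alternative, including each library left out, with log2 changes from 1.22 to 1.35 in the latter. Among the 298 tested names of 55% to 65% GC, the bin chosen after its values were seen, 0% had a larger change. GC content ran only weakly with this comparison (Spearman's rho -0.12), so the bin is a description and no test.

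The miR-27 3p strands rose by a smaller factor. miR-27b-3p went from 68.9, 70.9 and 78.2 CPM in Con exosomes to 103, 108 and 83.1 CPM in Ang exosomes, a log2 change of 0.59 (SE 0.139, adjusted p = 0.00851, edgeR), or 1.51-fold. The groups did not overlap, although Con replicate 3 and Ang replicate 3 were close. miR-27a-3p went from 37.9, 61.9 and 77.2 CPM to 83.2, 92.9 and 80.2 CPM, a log2 change of 0.71 (SE 0.209, adjusted p = 0.025, edgeR), or 1.64-fold, again without overlap. Its Con values spread widely, and the call was lost with library totals (adjusted p = 0.0993) and without Con replicate 2 (0.0511), Ang replicate 1 (0.0634), Ang replicate 2 (0.0617) or Ang replicate 3 (0.0501). The log2 change without those libraries was 0.75, 0.72, 0.69 and 0.77, and 0.49 (adjusted p = 0.033) without Con replicate 1. Summed over a and b, which does not depend on how reads were split, the miR-27 3p strands rose by 0.65 on the log2 scale (SE 0.138, adjusted p = 0.0049, edgeR), or 1.57-fold. That call held with library totals (adjusted p = 0.0343) and without any 1 library (adjusted p at most 0.0229).

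The most abundant strands did not pass the test. miR-23a-3p overlapped between groups, and its log2 change of 0.13 (adjusted p = 0.755, edgeR) turned to -0.048 with library totals and to -0.14 without Con replicate 1. For miR-23b-3p the change of 0.21 (adjusted p = 0.554) became -0.0074 without that library. miR-24-3p had 139, 230 and 284 CPM in Con exosomes and 252, 279 and 220.04 CPM in Ang exosomes, which overlapped, with a log2 change of 0.38 (adjusted p = 0.185). This value rests on single libraries: it was 0.16 (adjusted p = 0.395) without Con replicate 1 and 0.59 (adjusted p = 0.041, a call) without Con replicate 3. miR-23b-5p, with 6 to 16 counts a library, had a change of 0.60 (adjusted p = 0.28), which ranged from 0.36 without Con replicate 1 and 0.39 without Ang replicate 3 to 1.03 without Con replicate 3.

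The other 3 members were too sparse for the count filter. miR-27a-5p had 7, 5 and 11 counts in Con exosomes and 3, 1 and 2 in Ang exosomes, a CPM ratio of Con over Ang of 3.55 (95% counting interval 1.41 to 10.7). These groups did not overlap, as for 36.3% of the tested names, which were lower throughout in Ang. With the filter removed the log2 change of -1.67 did not pass the threshold (adjusted p = 0.0701, edgeR). The CPM ratio for miR-27b-5p was 1.80 (0.993 to 3.38) from 35 and 18 summed counts. Blood cell markers moved with these groups: 3 of the 5 tested, miR-142-3p, miR-223-3p and miR-451a, fell in Ang exosomes with overlapping ranges. The 7 listed blood markers summed to between 552 and 1279 CPM in Con exosomes and between 346 and 643 CPM in Ang exosomes. Con replicate 1 was the lowest Con library for this sum. Of the sum, miR-223-3p alone held 385 to 632 CPM in Con and 320 to 387 CPM in Ang, and miR-144-3p was at 0 or 1 count in every exosome library. Of 3 liver markers miR-122-5p fell, from 9, 109 and 152 counts in Con exosomes to 3, 18 and 11 in Ang exosomes, and miR-885-5p rose. The call of miR-885-5p was lost with DESeq2 (adjusted p = 0.0962) and without Con replicate 3 (0.0540) or Ang replicate 2 (0.0581). The calls of miR-122-5p and of the 3 blood markers held without Con replicate 1 and were lost without Con replicate 2 or 3 or Ang replicate 1 or 3 (adjusted p from 0.0636 to 0.157), and those of miR-142-3p and miR-223-3p also without Ang replicate 2 (0.0538 and 0.0683). DESeq2 did not call miR-142-3p (adjusted p = 0.138) or miR-451a (0.188). With RLE factors in edgeR, miR-142-3p (adjusted p = 0.0566) and miR-223-3p (0.0669) did not pass. The liver list summed to between 35.9 and 185 CPM in Con exosomes and between 47.3 and 70.0 CPM in Ang exosomes. Neither of the 2 endothelial markers passed, and their sum was 130 to 473 CPM in Con exosomes and 84.6 to 233 CPM in Ang exosomes. The part of RNA from blood, liver or endothelium in the members' changes was not tested. Without Con replicate 1, miR-23a-5p changed by 1.22 and miR-27b-3p by 0.58 on the log2 scale, both still called. Leaving out that library also widened the falls of miR-122-5p (to -3.35) and miR-451a (to -3.15). It is therefore no test of the part of RNA from blood, liver or endothelium.

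**Figure D3:**
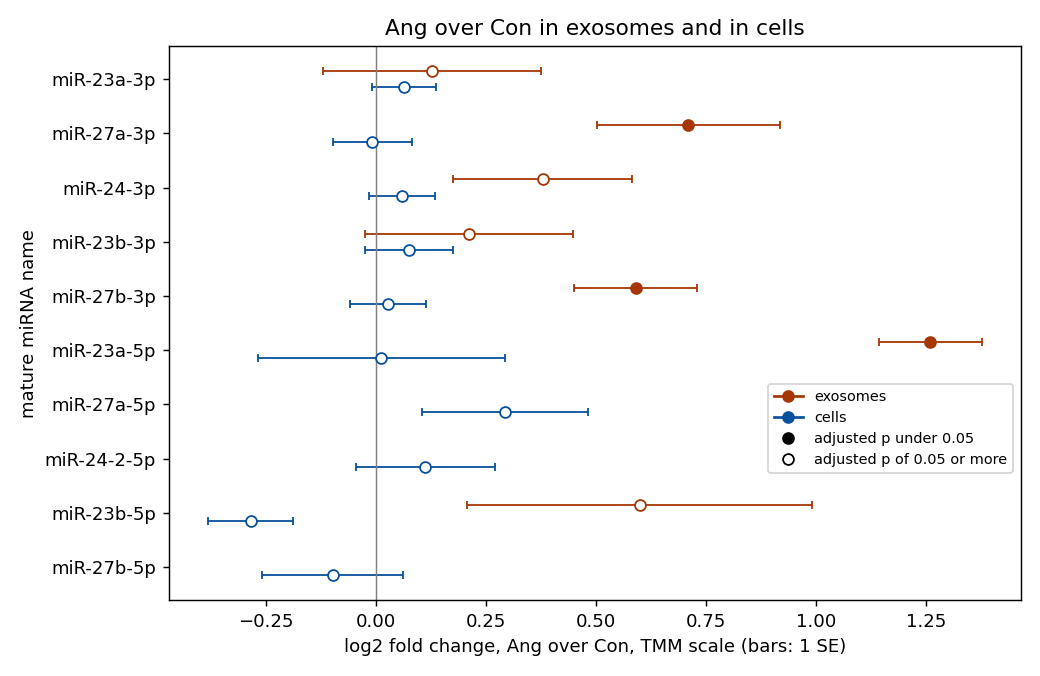
Log2 change of Ang over Con for each member in exosomes and in cells, with bars of 1 SE from the edgeR fit; filled points passed an adjusted p of 0.05, and members that failed the count filter in exosomes have a cell point alone. In exosomes miR-23a-5p is at 1.26, miR-27a-3p at 0.71 and miR-27b-3p at 0.59, whereas the cell points lie between -0.28 and 0.29.

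In cells the same comparison called 6.56% of 1630 names (2.76% higher and 3.80% lower) and 0 of the 10 members by edgeR's quasi-likelihood test, and DESeq2 also called 0. At an unadjusted p under 0.05 there was 1, miR-23b-5p, whose log2 change was -0.28 (SE 0.0976, adjusted p = 0.105). It had 611, 607 and 533 CPM in Con cells and 469, 464 and 519 CPM in Ang cells, so the groups did not overlap, as for 22.4% of the names tested (9.94% lower and 12.5% higher). miR-27a-5p was also without overlap, with a log2 change of 0.29 (adjusted p = 0.477). Blood markers summed to 6895 CPM in Ang replicate 2 and to 2041 and 2172 CPM in the other Ang cell libraries. Of these sums miR-223-3p alone held 3282, 1827 and 1969 CPM. Without Ang replicate 2, 0 members were called as well. The other 8 members had log2 changes from -0.10 to 0.11, among them 0.01 for miR-23a-5p and 0.00 for the summed miR-27 3p strands.

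The difference between the change in exosomes and that in cells was tested as an interaction over all 12 libraries. It passed for 15.1% of 1835 names, 9.97% with a greater and 5.18% with a lesser value in exosomes, and for 4 of the 10 members. Of these members, miR-24-2-5p, miR-27a-5p and miR-27b-5p were too sparse to be tested within exosomes and entered through their cell counts. The change was greater in exosomes for miR-23a-5p, by 1.39 on the log2 scale (SE 0.28, adjusted p = 0.00202, edgeR), for miR-27a-3p by 0.85 (adjusted p = 0.0207) and for miR-27b-3p by 0.70 (adjusted p = 0.00504). For miR-27a-5p it was less, by -1.78 (adjusted p = 0.0401), from 6 summed counts in Ang exosomes. Without the count filter this last call was lost (adjusted p = 0.0567), as it was with DESeq2 (0.0903), and also without any one of cells Con replicates 1, 2 and 3, cells Ang replicates 1 and 2, exosomes Con replicate 3 and exosomes Ang replicates 2 and 3 (adjusted p up to 0.164). With library totals, which shifted the median of all names by -0.32, the calls of miR-27a-3p (adjusted p = 0.136) and miR-27b-3p (0.118) were lost, whereas miR-23a-5p kept its call under each alternative (1.07, adjusted p = 0.0125, with library totals). The call of miR-27a-3p was also lost without cells Con replicate 1 (adjusted p = 0.0585), exosomes Con replicate 2 (0.0612), exosomes Ang replicate 1 (0.0502) or exosomes Ang replicate 2 (0.0800), whereas that of miR-27b-3p held with any 1 library left out. The interaction of miR-23b-5p, 1.03 (adjusted p = 0.0661), passed with RLE factors (0.0336), with DESeq2 (0.0273) and without exosomes Con replicate 3 (0.0102) or exosomes Ang replicate 2 (0.0319), and that of miR-24-3p, 0.45 (adjusted p = 0.238), passed without exosomes Con replicate 3 (0.68, adjusted p = 0.0253) but was 0.17 without exosomes Con replicate 1. Without cells Ang replicate 2, the library rich in blood markers, miR-23a-5p, miR-27a-3p and miR-27b-3p kept their calls.

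Ratios between members of 1 library do not depend on scaling between libraries. Of 13 ratios listed, 7 had a mean of at least 10 counts for both members in every group, which gave 28 tests. None can pass after adjustment, since an exact two-sided permutation test of 3 against 3 gives p = 0.1 at the least, 0.28 after Benjamini-Hochberg adjustment. The ratio of miR-23a-3p to miR-23b-3p was between 3.83 and 5.64 in all 12 libraries, and its groups overlapped in all 4 comparisons. The ratio of miR-24-3p to miR-23b-3p had group means of 1.99, 1.98, 1.91 and 2.09 on the log2 scale in Con cells, Ang cells, Con exosomes and Ang exosomes, and Ang exosomes exceeded Con exosomes 1.14-fold without overlap (exact permutation p = 0.1). Against miR-23a-3p, miR-24-3p was 1.19-fold higher in Ang than in Con exosomes and 1.15-fold lower in Con exosomes than in Con cells, also without overlap (exact permutation p = 0.1 each). These gaps were narrow. Against miR-23a-3p the log2 ratio was at most -0.214 in Con exosomes, at least -0.201 in Ang exosomes and at least -0.183 in Con cells. Against miR-23b-3p it was at most 1.93 in Con exosomes and at least 1.97 in Ang exosomes.

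The ratio of the miR-23a arms differed between cells and exosomes. miR-23a-5p stood at 0.0101, 0.0154 and 0.0106 of miR-23a-3p in Con cells and at 0.0141, 0.0134 and 0.00798 in Ang cells. In exosomes it was 0.465, 0.277 and 0.238 in Con and 0.622, 0.558 and 0.838 in Ang. The exosome ratio was 26.5-fold higher than in cells in Con and 57.8-fold higher in Ang, and Ang exosomes exceeded Con exosomes 2.12-fold, each without overlap (exact permutation p = 0.1, adjusted 0.28). In cells the Ang and Con ratios overlapped (exact permutation p = 1).

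The position of miR-27a-3p against its neighbour miR-23a-3p also differed by group. The mean log2 ratio was -1.16 in Con cells and -1.22 in Ang cells, -2.22 in Con exosomes and -1.65 in Ang exosomes. Ang exosomes exceeded Con exosomes 1.49-fold without overlap (exact permutation p = 0.1), and Con exosomes were 2.09-fold below Con cells. In Ang, exosomes were 1.34-fold below cells and the ranges overlapped (exact permutation p = 0.2). The matching ratio in the b cluster, miR-27b-3p to miR-23b-3p, overlapped in every comparison. It was 1.27-fold higher in Ang than in Con exosomes (exact permutation p = 0.3). miR-27a-3p was also lower against miR-27b-3p in exosomes than in cells, by -0.51 in Con and -0.32 in Ang on the log2 scale, without overlap (exact permutation p = 0.1 each). The Con value was -0.26 without exosomes Con replicate 1, and these strands differ at 1 position.

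**Figure D4:**
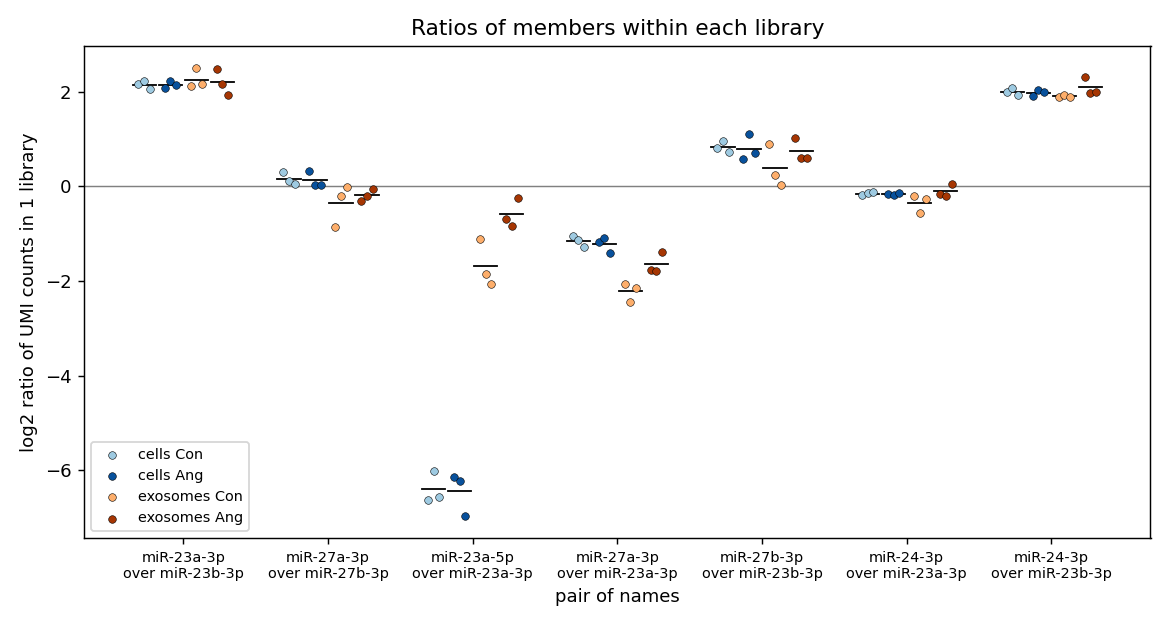
Log2 ratios of counts between members in each of the 12 libraries, with a pseudocount of 0.5; points are libraries and short lines are group means. The miR-23a-3p over miR-23b-3p ratio is alike in every group, whereas miR-23a-5p over miR-23a-3p has a mean near -6.41 in Con cells, -1.68 in Con exosomes and -0.59 in Ang exosomes.

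Names with the most similar pattern were found by the root mean square difference of centred log2 CPM over the 12 libraries, among 1092 other names of at least 10 CPM in each group. For miR-23a-3p these were miR-221-3p (0.11) and miR-125a-5p (0.13), for miR-23b-3p miR-221-3p (0.11) and miR-24-3p (0.11), and for miR-24-3p miR-379-5p (0.06) and miR-221-3p (0.09). miR-27a-3p was nearest to miR-29a-3p (0.17) and miR-30e-5p (0.20), and miR-27b-3p to miR-337-5p (0.16) and miR-152-3p (0.18). The miR-27 strands ranked 20th and 23rd in each other's order. The nearest to miR-23a-5p were miR-6513-5p (0.25) and miR-1238-5p (0.28), and its own 3p partner ranked 941st, at 2.69.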

How the data were processed

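Kits were miRNeasy Micro for cell RNA, exoRNeasy Maxi for exosomes and QIAseq miRNA for libraries, per the labels' protocols. The authors deposited unnormalized UMI counts for each mature miRNA, per the file headers. The submitters' processing notes name cutadapt and GRCh38. How reads were aligned and counted, and with how many mismatches, is not given in the sources used here. The 76 names absent from exosome files never exceeded 20 counts and were taken as 0.

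Pairwise comparisons used the 6 libraries concerned, and the interaction all 12, in edgeR 4.0.16 (R 4.3.3): filterByExpr, TMM, two-sided quasi-likelihood test, Benjamini-Hochberg adjustment over all tested names, threshold 0.05. SEs were derived from the F statistic. DESeq2 1.42.0, RLE factors, library totals, no filter, a replicate block and leaving out each library were the alternatives. The fit was tested on simulated data. Ratios used a pseudocount of 0.5 and exact permutation tests (scipy 1.17.1). Floors are 3 counts, and intervals of CPM ratios are exact at 95%; both cover counting error only. Mature sequences (RefSeq, GRCh38.p14) matched 2367 of 2656 names (89.1%), with host genes from GENCODE 29. Besides the 10 members, the names described are the 2 nearest in pattern to each member of at least 10 CPM in every group and list members past the threshold. The members and lists were chosen with earlier results of these data known.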

Additional observations from a re-analysis of the deposited data

Results flagged for a closer look

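The Ang over Con change differed between exosomes and cells for 4 members by the interaction test (edgeR quasi-likelihood, Benjamini-Hochberg adjustment, 12 libraries). Of all 1835 names tested 15.1% passed, 9.97% with a greater and 5.18% with a lesser change in exosomes. The difference was 1.39 on the log2 scale for miR-23a-5p, 0.85 for miR-27a-3p and 0.70 for miR-27b-3p, each with a greater change in exosomes. It was -1.78 for miR-27a-5p, which has 1 to 11 counts in an exosome library and entered the test through its cell counts. Only the call of miR-23a-5p held under every alternative. The calls of miR-27a-3p and miR-27b-3p were lost with library totals, and that of miR-27a-5p with DESeq2 and without the count filter.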

How the results depend on the processing

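All values in this paragraph are log2 differences unless named otherwise. With library totals, miR-23a-3p turned to -0.048 for Ang against Con in exosomes and to -0.13 in the interaction, miR-23b-3p to -0.046 in the interaction, the miR-23 3p sum to -0.034 and -0.11, and miR-27a-3p in cells to 0.0063. The miR-27 3p sum was then 0.45 in the interaction and no longer passed (adjusted p = 0.0646), and the members with a greater change in exosomes numbered 1. Members with a lesser change numbered 0 with DESeq2, without a count filter and with the replicate block. In cells, signs near 0 also turned: miR-27b-3p was -0.0056 with DESeq2 and -0.0013 without a filter, miR-23a-5p was -0.013 without a filter, and the miR-27 3p sum was -0.0046 with the replicate block, which was added for the sums after the data were seen. Names called higher made up 49.8% of calls in exosomes, against 32.1% with library totals and 60.5% with DESeq2, and 65.8% of interaction calls, against 29.6% with library totals. When the 10 most abundant names of each group, 21 in all, were left out of the total, the members' share differed by 0.0484, -1.23 and -1.22 percentage points (Ang against Con in exosomes, then exosomes minus cells in Con and in Ang), against 0.0163, -0.939 and -0.955. The cause of these shifts was not tested.

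With 1 library left out, Ang against Con in exosomes ranged from -0.14 to 0.29 for miR-23a-3p, -0.0074 to 0.45 for miR-23b-3p and -0.11 to 0.30 for their sum, negative without Con replicate 1. In cells it ranged from -0.16 to 0.20 for miR-23a-5p, -0.10 to 0.10 for miR-27a-3p, -0.00061 to 0.19 for miR-24-2-5p, -0.27 to 0.017 for miR-27b-5p, -0.040 to 0.11 for miR-27b-3p, -0.00093 to 0.12 for miR-23a-3p, -0.020 to 0.12 for miR-24-3p and -0.056 to 0.078 for the miR-27 3p sum. All names called in cells numbered 38 to 97, against 107, with 38 without Con replicate 2 or 3 and 70 without Ang replicate 1. In the interaction the range was -0.12 to 0.36 for miR-23a-3p, -0.0074 to 0.52 for miR-23b-3p, -0.10 to 0.39 for their sum and -1.27 to 0.59 for miR-24-2-5p, with 2 to 5 members greater and 0 to 1 lesser. Whether equal numbers pair the libraries could not be settled. Same-numbered deviations correlated between -0.07 and 0.13 over 1543 names, and those of unlike numbers averaged between -0.06 and 0.03. With 3 libraries in a group, such values cannot exclude pairing. The replicate block called 384 names in exosomes, against 408, and 133 in cells, against 107, and it changed 1 member call, that of miR-27a-5p in the interaction (adjusted p = 0.0676). Low counts limit the 5p strands other than miR-23a-5p in exosomes.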

Other observations

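Other miRNAs described in hypertrophy and vessel growth were also looked up in Ang exosomes, where 34.0% of all names were called (16.9% higher and 17.1% lower). Of 13 hypertrophy miRNAs 8 were tested, of which 1 rose, miR-214-3p, and 1 fell, miR-212-3p. miR-214-3p had 175, 169 and 178 CPM in Con exosomes and 211, 203 and 235 CPM in Ang exosomes, a log2 change of 0.48 (adjusted p = 0.00577, edgeR). For miR-212-3p the change was -1.12 (adjusted p = 0.00549, edgeR), from 19, 19 and 23 counts to 6, 9 and 8. Of 14 vessel miRNAs 9 were tested, of which 2 rose and 0 fell. miR-296-5p rose by 0.58 (adjusted p = 0.000384, edgeR). miR-210-3p, known as a hypoxia-induced miRNA, rose by 0.73 (adjusted p = 0.0303, edgeR), but did not pass with library totals (adjusted p = 0.0803), with DESeq2 (0.219), without a count filter (0.0808) or without any 1 exosome library other than Con replicate 1 (0.0505 to 0.125).

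In cells, where 6.56% of names were called, 1 hypertrophy miRNA of 12 tested was lower and 1 vessel miRNA of 14 was higher. miR-208a-3p, encoded within a myosin heavy chain gene, fell by 0.47 on the log2 scale (adjusted p = 0.0446, edgeR), a call lost with library totals (adjusted p = 0.0585), with DESeq2 (0.0745) and without any 1 cell library other than Ang replicate 3 (0.0593 to 0.218). miR-126-3p, an endothelial miRNA, had 274, 279 and 281 CPM in Con cells and 302, 4007 and 318 CPM in Ang cells, a log2 change of 2.46 (adjusted p = 0.0445, edgeR). Without Ang replicate 2 its change was 0.14 (adjusted p = 0.644), and without Con replicate 1, 2 or 3 the call was lost too (adjusted p = 0.189, 0.169 and 0.199).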
